A study of Aix galericulata with 8 samples.

Results

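*FGF18*, a secreted fibroblast growth factor, and *FGFBP1*, which encodes a secreted protein that carries fibroblast growth factors, were examined in the growing male sail feathers of the Mandarin duck (*Aix galericulata*). The gene models were found by their symbol in the authors' tables for epithelium and pulp. Both lie in the pulp table and 0 lie in the epithelium table. They make up 2 of the 864 table entries, counted without removing gene models listed in both tables. The pulp table spells one symbol exactly as FGFBP1 (gene model Mandarin_00143900) and the other with a hyphen, as FGF-18 (gene model Mandarin_00577900), so that 1 of the 2 was found by an exact match and the second once hyphens were ignored. The gene models are in the table because they were selected by the p-value of the authors' comparison of medial brown with lateral blue vane, and *FGF18* and *FGFBP1* were picked from it with that result known. Being listed is therefore not a finding here.

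The series holds 8 RNA-seq libraries of wild-type males in the breeding season, taken about 4 weeks after plucking. Epithelium and pulp were each dissected from the medial brown and from the lateral blue vane, with 2 libraries for each tissue of each vane. The sample labels number them as replicates, and the submitters' design text calls them independent biological ones. No treatment was given. The epithelium is the layer that forms the barbs, whereas the pulp is the mesenchyme inside the growing follicle. The methods name 2 males, so some of the 8 libraries share a bird and not all are independent of each other. Which bird each library came from is not given in the labels. The methods also mention the flight feather next to the sail feather among those plucked. The labels name the sail feather only and were followed here. Each tissue has 1 deposited table, with 784 gene models for the epithelium and 80 for the pulp.

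Most fibroblast growth factors are secreted signals that bind receptor tyrosine kinases on nearby cells. Heparan sulfate on the cell surface and in the matrix is a cofactor. Heparan sulfate also holds many of these ligands in the matrix, and carrier proteins such as FGFBP1 bind and release them so that they can reach their receptors. In mice, FGF18 is known as a signal that keeps hair follicles at rest. In the skin appendages of birds, signaling by this family acts between mesenchyme and epithelium while buds form and grow.

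*FGF18*, a ligand, had a logCPM of 0.26 in the pulp table, which is an average of 1.20 CPM. The logCPM is the authors' log2 of the average CPM over the libraries fitted together. CPM is the share of a library's counted reads, scaled to a fixed total. Which libraries were fitted together is not stated, so the average may cover the pulp alone or both tissues. Of the other gene models in the pulp table, 1 had a lower logCPM and 78 had a higher one. Among the 57 pulp gene models that carry a symbol, 0 had a lower value. By CPM, *FGF18* thus has the lowest read support of the 57 gene models with a symbol in the pulp table. That table lists only gene models selected by the authors, so the rank does not extend to all genes read in the pulp.

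*FGFBP1*, a carrier, had a logCPM of 2.48 in the pulp table, an average of 5.57 CPM. In the pulp table, 17 gene models had a lower logCPM and 62 a higher one, and the value lay just under the lower quartile of 2.59. The median of the 80 pulp gene models was 4.14 on the log2 scale, or 17.6 CPM, above both *FGF18* and *FGFBP1*. The logCPM of *FGFBP1* was 2.22 above that of *FGF18*, a ratio of 4.66 between the average CPM values. CPM is not corrected for transcript length, so this ratio compares read support and not the number of transcripts. The averages from edgeR hold a prior count by default, which draws such a ratio toward equality by an amount that cannot be given without the depth. The error of these averages is unknown, since 0 columns of the tables give a value for a single library.

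**Figure D1:**
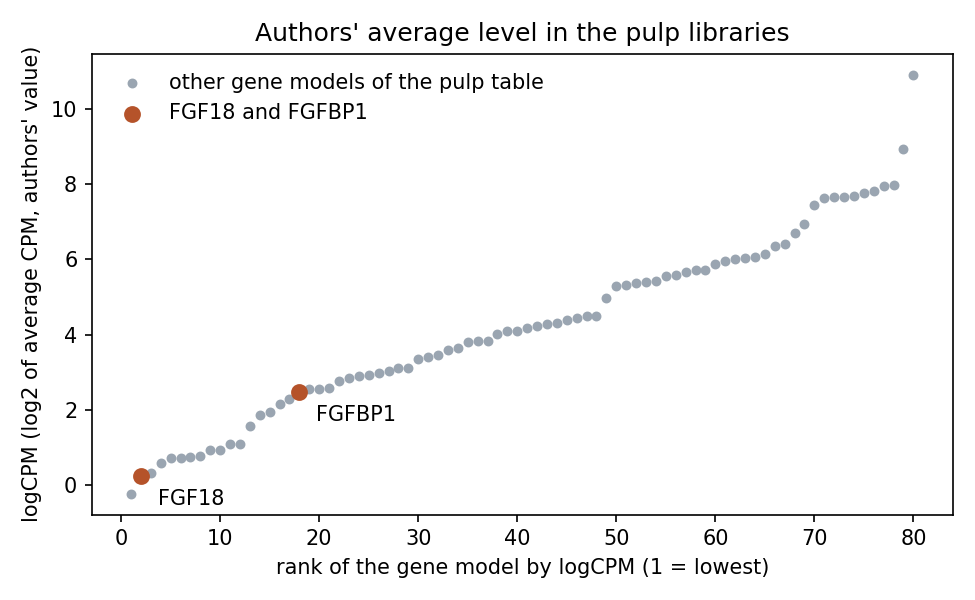
The 80 gene models of the pulp table are ordered by the authors' logCPM, the log2 of the average CPM (vertical axis), with their rank from the lowest on the horizontal axis. Orange points mark *FGF18* at 0.26, next to the lowest point, and *FGFBP1* at 2.48, above 17 gene models. Gray points are the other gene models. That the average covers the pulp libraries alone, as the title of the plot says, was assumed.

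A list of 76 symbols was written by role. It holds 19 members of the fibroblast growth factor family, 3 carriers, and 7 receptors and co-receptors. The rest are 23 heparan sulfate proteoglycans and their enzymes, 9 proteins of the intracellular relay, and 15 feedback regulators and target genes. Apart from *FGF18* and *FGFBP1*, the list has 74 symbols, of which 0 were in the pulp table and 1 was in the epithelium table. The list is not complete. It leaves out *SPOCK3*, which also encodes a heparan sulfate proteoglycan. The *SPOCK3* gene models Mandarin_01300200 and Mandarin_00085300 had a logCPM of 4.28 and 7.98 in the pulp table. The 0 for the pulp thus holds for the listed symbols only. The share of all tested genes that each table lists was not computed here, so these counts cannot be read as low or high. The listed gene in the epithelium table was *SDC3*, which encodes syndecan-3, a heparan sulfate proteoglycan of the cell surface. Its gene model, Mandarin_00768800, had a logCPM of 4.44 in the epithelium table, an average of 21.7 CPM, with 323 of 784 gene models lower. The tables leave out genes that did not pass the authors' threshold, so absence from a table does not show that a receptor or target was not expressed or did not differ. The level of *FGF18* and *FGFBP1* in the epithelium was not analysed here for the same reason.

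The labelled tissues could not be checked against their markers. Of 7 keratinocyte markers and 7 mesenchyme markers, 0 were in either table.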

How the data were processed

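Libraries of polyadenylated RNA from epithelium and pulp were sequenced by the authors, and the processing notes of the submitters name STAR 2.4.1d, HTSeq 0.6.0 and edgeR. The methods add TMM scaling. The study cites a Mandarin duck reference genome, but the build used to align these reads is not given in the sources used here. The deposited tables, 1 per tissue, give a log2 value that the authors computed (logCPM, the log2 of the average CPM). That logCPM pools the 4 libraries of a tissue was assumed and is not stated. If all 8 libraries were fitted together, the average would cover both tissues. The default method adds a prior count, which raises low averages by an amount that depends on the unknown depth.

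The tables also hold the log2 fold change, p-value and FDR of the authors' comparison. These columns were not used, so no difference between the vanes is given. With 0 columns of values per library, the depth and the spread between replicates are unknown, and no test was run.

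Average CPM was computed as 2 to the power of logCPM with Python 3.11.15, pandas 2.3.3 and numpy 2.4.6. The plot was drawn with matplotlib 3.10.9. Genes named are *FGF18*, *FGFBP1* and each table entry from the list of 76 FGF pathway symbols, with *SPOCK3* named from outside that list. The genes, the list and the markers were chosen with earlier results of these data known. The alternatives were a match of symbols without hyphens, a rounded logCPM, and ranks among gene models with a symbol. No sequence or position is given, as no reference was used here.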

Additional observations from a re-analysis of the deposited data

How the results depend on the processing

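Spelling decided which gene models were found. Exact matching found 1 of the gene models and 1 listed pathway symbol in the pulp table, and ignoring hyphens and letter case raised each count to 2, since FGF-18 then matched. The count in the epithelium table was 1 either way. Rounding logCPM to 2 decimals gave 1.20 CPM for *FGF18* and 5.58 CPM for *FGFBP1*. Among gene models of the pulp table with a symbol, 0% lay below *FGF18*, against 1.25% of all in that table. For *FGFBP1*, 22.8% of those with a symbol lay below it, against 21.2% of all in that table. No paired analysis was possible because the tables hold no value per library, and for the same reason no replicate could be left out. How many reads an average of 1.20 CPM stands for is unknown, since the depth of the libraries is.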
